A study of Mus musculus with 48 samples.

Results

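The genes named Zfp900 to Zfp999 were taken as all transcript rows of the count table whose name is Zfp followed by a 3-digit number that begins with 9. This rule gave 32 of the 24264 transcripts, and all 32 had at least 3 reads in at least 1 library. Together they took 196473 reads, which is 0.0582% of the 337568013 reads on transcripts. RNA was measured with STRT, a method that reads the 5′ ends of transcripts, in 48 libraries from 20 conditions of mouse reprogramming, in which fibroblasts are turned into pluripotent stem cells by transcription factors. Levels are given as counts per 1000000 reads on transcripts (CPM) and are not divided by length, because every molecule is read only at its 5′ end; an order of levels between genes can therefore still depend on how well each start site was captured.

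The starting cells were mouse embryonic fibroblasts (MEFs), either WT or carrying 1 of 2 doxycycline-inducible cassettes, MKOS or OKMS, that express Myc, Klf4, Oct4, and Sox2 in the order of the letters. MKOS and OKMS MEFs came from chimeric mid-gestation embryos made with TNG ESCs, in which the cassette and a CAG-driven rtTA sit in an intron of Sp3 and GFP is inserted at Nanog, so host cells can remain among them. For reprogramming they were mixed into an excess of WT MEFs, kept in ESC medium with doxycycline and vitamin C, and sorted on day 10 per the methods, whereas the culture protocol of the labels says 10 or 15 days. Each of the 8 sorted populations had 3 libraries. Both cassettes gave E-CAD+ cells in the gates 2NG-, 3NG-, and 3NG+, while E-CAD- cells in the gates 2NG- and 3NG- were taken for OKMS alone. Here 2 stands for the CD44low ICAM1low gate, 3 for the CD44low ICAM1high gate, and NG for the Nanog-GFP signal. The remaining 12 conditions had 2 libraries each. They were 3 kinds of MEFs (WT and both cassettes), 4 ESC lines (the wild-type line E14, the reporter line TNG, and TNG with either cassette), and 5 kinds of iPSCs. The first 4 of the latter were iPSCs of either cassette kept without doxycycline (-dox) or in 2i medium, and D6 was a line with a single piggyBac MKOS insertion. Neither labels nor methods say whether libraries of a condition came from separate cultures, so p-values measure only the spread between libraries. Depth was 1429717 to 14174725 reads on transcripts per library, with a median of 6243255. A level of 3 reads corresponded to 0.212 to 2.10 CPM, a floor that covers counting error only.

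Mouse genes with names of this kind encode proteins with arrays of C2H2 zinc fingers, and many of them also carry a KRAB domain. KRAB zinc finger proteins bind DNA through their fingers and recruit Trim28, which brings the histone methyltransferase Setdb1 and other repressors to the site. In ESCs and early embryos this system is known for silencing endogenous retroviruses and for keeping imprints, and the genes lie in clusters of similar copies that arose by duplication.

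Promoter sequences are shown for 4 members on which the results turn: Zfp936 and Zfp951, which were higher in ESCs than in MEFs, Zfp931, which was lower, and Zfp961, whose reads were all placed uniquely. Each runs from 250 bases before to 50 bases after the start that RefSeq gives on GRCm38.p6, at chr7:43177340-43177639 on the plus strand for Zfp936, chr5:104859978-104860277 on the minus strand for Zfp951 (1 of 2 starts listed), chr2:178078376-178078675 on the minus strand for Zfp931, and chr8:71950816-71951115 on the plus strand for Zfp961. Capitals mark the letters CCTGCCAGTCAGAA, the longest run shared by Zfp931, Zfp936, and Zfp951 and picked after reading these sequences, and CCAAT on either strand; no marked runs overlap.
Zfp936: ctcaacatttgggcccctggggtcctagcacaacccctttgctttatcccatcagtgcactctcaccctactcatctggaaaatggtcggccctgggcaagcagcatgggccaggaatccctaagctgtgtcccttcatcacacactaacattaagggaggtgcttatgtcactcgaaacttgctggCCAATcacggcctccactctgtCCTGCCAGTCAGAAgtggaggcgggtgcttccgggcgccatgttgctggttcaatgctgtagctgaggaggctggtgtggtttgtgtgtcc
Zfp951: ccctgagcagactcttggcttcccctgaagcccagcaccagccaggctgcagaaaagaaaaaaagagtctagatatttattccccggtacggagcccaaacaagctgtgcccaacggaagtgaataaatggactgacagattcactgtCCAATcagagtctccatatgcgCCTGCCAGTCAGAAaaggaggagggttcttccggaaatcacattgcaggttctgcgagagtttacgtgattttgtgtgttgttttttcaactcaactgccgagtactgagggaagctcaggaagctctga
Zfp931: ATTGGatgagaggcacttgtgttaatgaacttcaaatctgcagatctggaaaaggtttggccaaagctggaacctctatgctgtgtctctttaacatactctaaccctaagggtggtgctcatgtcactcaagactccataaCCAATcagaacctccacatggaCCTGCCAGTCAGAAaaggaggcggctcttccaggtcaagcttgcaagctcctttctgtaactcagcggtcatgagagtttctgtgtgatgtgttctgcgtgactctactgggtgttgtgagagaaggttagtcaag
Zfp961: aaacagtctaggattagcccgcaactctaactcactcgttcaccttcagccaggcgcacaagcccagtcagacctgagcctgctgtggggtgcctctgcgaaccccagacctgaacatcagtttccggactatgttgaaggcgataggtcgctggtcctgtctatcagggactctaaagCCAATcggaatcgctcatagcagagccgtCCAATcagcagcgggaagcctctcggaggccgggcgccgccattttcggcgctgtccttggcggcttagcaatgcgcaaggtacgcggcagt

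RefSeq promoters were matched for 29 of the 32 members by symbol, and none was found for Zfp930, Zfp934, and Zfp960. The run CCTGCCAGTCAGAA, searched on both strands, lay in 3 of the 29, beginning 41 bases before the start of Zfp936, 80 before that of Zfp951, and 86 before that of Zfp931. It was also in 11 of 278 other genes named Zfp and a number (3.96%), and in 43 of 27025 genes (0.159%). All 11, such as Zfp950 and Zfp977, were among the 26 of the 278 whose names also lie between Zfp900 and Zfp999 and whose expression was not analysed here; none of the other 252 held it. Thus it was shared by a pair of members whose rows rose and 1 whose row fell between MEFs and ESCs. Few reads of these rows were placed uniquely (0.138% for Zfp931, 22.1% for Zfp951, and 22.7% for Zfp936). Their levels can therefore not be tied to these promoters. CCAAT was in 19 of the 29 (65.5%) against 51.8% of the other Zfp genes and 41.1% of all genes, and TATAAA in none of them against 8.99% of the other Zfp genes and 15.7% of all genes. GGGCGG, the letters of a GC box, was in 10 (34.5%) against 48.2% of the other Zfp genes and 38.2% of all genes. Each of these was searched on both strands. Among the 26 other Zfp genes of the same range of names, CCAAT was in 88.5%, TATAAA in none, and GGGCGG in 38.5%, and of the remaining 252 they were in 121, 25, and 124. These matches describe the letters of the windows only.

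Reads of close copies cannot be told apart, and the authors assigned a read with several positions to the most 5′ exonic hit. The unique share, the percentage of a row's reads that had a single position, was at least 90% for 20 of the 32 members (62.5%), against 89.8% of 303 other Zfp rows and 87.1% of 19768 transcript rows with reads. It was below 50% for 8 members (25.0%), against 2.97% of the other Zfp rows and 7.55% of all rows. Over all reads of the members it was 60.1%. The lowest was that of Zfp931, with 40 unique reads of 28969 (0.138%), followed by Zfp942 with 18.8%, Zfp951 with 22.1%, Zfp936 with 22.7%, and Zfp943 with 30.4%. The unique share was 53.6% for Zfp960 and 58.5% for Zfp932. Of the 6 members with the highest levels, only Zfp961 (100%) and Zfp958 (99.9%) exceeded 90%. For Zfp931 the first 50 bases of the transcript matched at least 30 bases of 4 other genes, among them Gm14305, whose promoter window was the closest to its own. The window of Zfp936 was 89.7% identical to that of Zfp977. The values of these rows can thus hold reads of several copies. The share is known only over all libraries together, so whether it differed between conditions was not tested.

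Of MEFs, ESCs, and iPSCs, the summed level of the members was lowest in MEFs and highest in iPSCs, though ESCs overlapped both. It was 313 to 507 CPM in the 6 MEF libraries, 377 to 767 CPM in the 8 ESC libraries, and 604 to 853 CPM in the 10 iPSC libraries. Among the 31 members with a mean of at least 1 CPM in some condition, 15 (48.4%) had their lowest mean in 1 of the 3 MEF conditions, against 40.1% of 292 other Zfp rows and 26.7% of 16136 transcripts. The highest mean was in an iPSC condition for 14 of them (45.2%), against 23.6% of the other Zfp rows and 20.2% of all transcripts. These peaks were not spread evenly over iPSCs. Zfp960, Zfp958, Zfp942, Zfp951, Zfp944, Zfp939, and Zfp964 peaked in MKOS iPSCs in 2i medium, and Zfp932, Zfp938, Zfp952, and Zfp956 in OKMS -dox iPSCs. Some rested on 1 library, such as Zfp956 with 0 and 76 reads in its 2 libraries there.

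**Figure D1:**
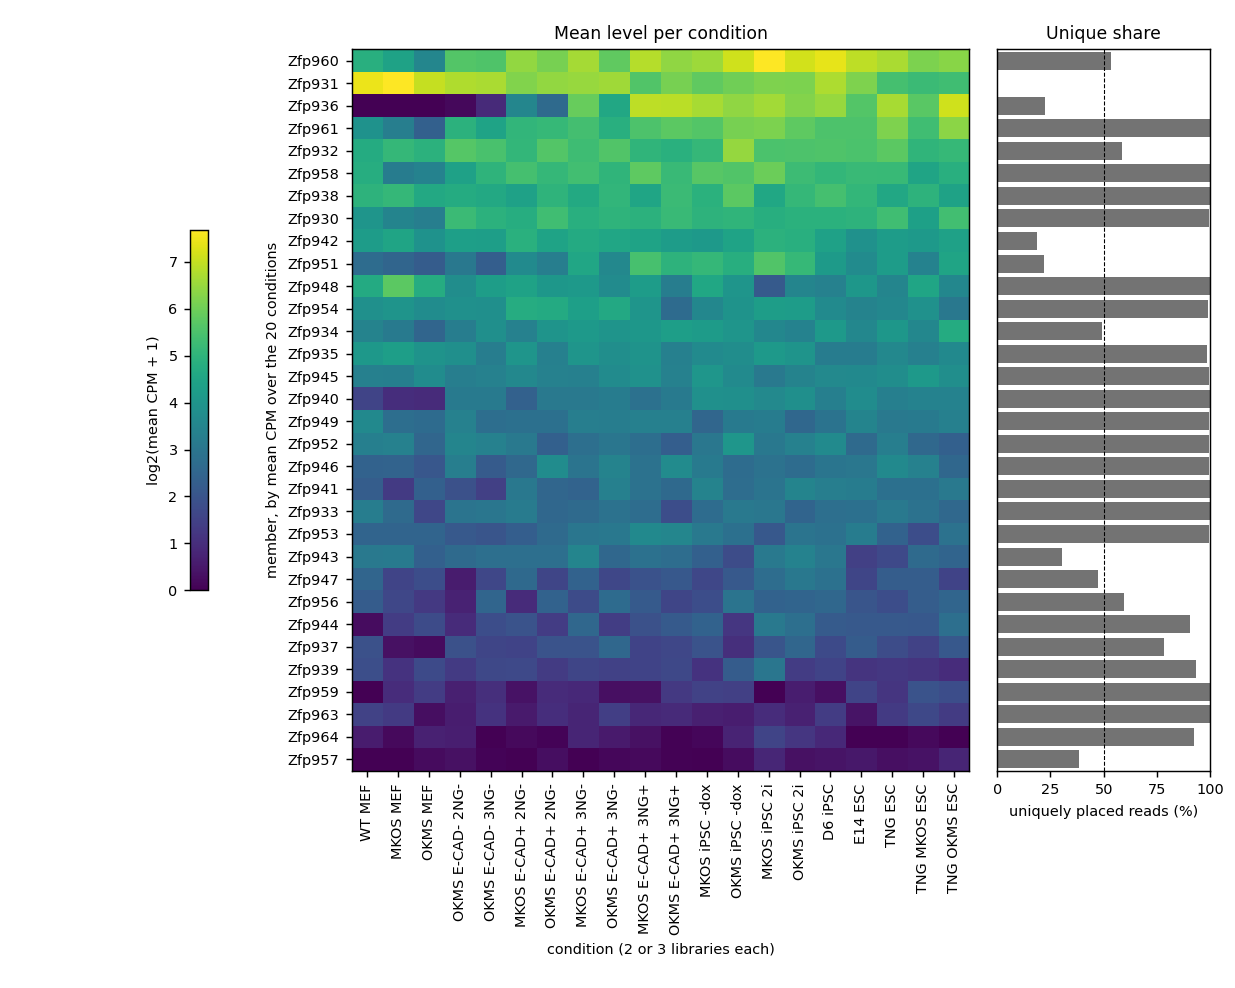
Mean level of the 32 members as log2(CPM + 1) in the 20 conditions (left, members ordered by their mean over the conditions) and the percentage of each member's reads that were placed uniquely (right, dashed line at 50%). Zfp936 is at 0 in the 3 MEF conditions and bright in Nanog-GFP+ cells, iPSCs, and ESCs, Zfp931 is brightest in MEFs, and Zfp931 has almost no unique reads.

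The 6 members with the highest mean over the 20 conditions were Zfp960 with 88.9 CPM, Zfp931 with 86.7, Zfp936 with 56.2, Zfp961 with 41.9, Zfp932 with 41.5, and Zfp958 with 34.1. Levels of Zfp960 were 7.79 to 29.6 CPM in MEFs (median 20.6, n = 6), 53.1 to 125 CPM in ESCs (median 99.9, n = 8), and 74.9 to 204 CPM in iPSCs (median 163, n = 10). For Zfp931 the order was turned, with 109 to 214 CPM in MEFs (median 173), 17.8 to 73.3 CPM in ESCs (median 46.7), and 32.0 to 114 CPM in iPSCs (median 72.1). Neither gene had an ESC library within the range of MEFs. Zfp961 had 3.16 to 15.0 CPM in MEFs (median 8.75), 36.5 to 98.1 CPM in ESCs (median 52.9), and 41.2 to 81.2 CPM in iPSCs (median 57.2), again without overlap with MEFs. Zfp932, a KRAB zinc finger protein known to repress endogenous retroviruses in ESCs, overlapped between all 3 kinds of cells, with 23.4 to 35.7 CPM in MEFs (median 29.997), 21.8 to 59.8 CPM in ESCs (median 42.4), and 21.6 to 122 CPM in iPSCs (median 46.1). Zfp958 had 7.27 to 28.8 CPM in MEFs (median 10.7), where both WT libraries were the highest with 28.8 and 24.1 CPM, and 10.5 to 38.8 CPM in ESCs (median 34.0). The other 26 members had means of 0.210 CPM (Zfp957) to 29.5 CPM (Zfp938).

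Zfp936 had the largest difference between ESCs and MEFs among the members. No read was found in any of the 6 MEF libraries (47128886 reads on transcripts), so that its level there was at most 0.0637 CPM at a floor of 3 reads over the group. OKMS E-CAD- cells had 0, 0.343, and 0 CPM in the 2NG- gate and 1.65, 1.05, and 0 CPM in the 3NG- gate, which is at most 10 reads in a library. In E-CAD+ 2NG- cells it was 7.45, 11.2, and 12.6 CPM with MKOS and 2.22, 2.90, and 10.9 CPM with OKMS. E-CAD+ 3NG- cells followed with 53.7, 48.3, and 73.6 CPM with MKOS and 11.5, 15.2, and 42.8 CPM with OKMS. Nanog-GFP+ cells had 116, 132, and 114 CPM with MKOS and 129, 118, and 108 CPM with OKMS, which overlapped each other. The 18 ESC and iPSC libraries ranged from 35.9 to 157 CPM (median 84.1), and libraries of a line differed, such as 36.3 and 157 CPM in MKOS iPSCs in 2i medium and 61.7 and 118 CPM in D6. Thus the means ordered as MEFs and E-CAD- cells, then E-CAD+ 2NG-, 3NG-, and 3NG+ cells with either cassette, and 3NG+ cells lay within the range of the pluripotent lines. The libraries of the pairs of neighbors MKOS 2NG- and 3NG-, MKOS 3NG- and 3NG+, OKMS 2NG- and 3NG-, and OKMS 3NG- and 3NG+ did not overlap, whereas those of the E-CAD- gates did.

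**Figure D2:**
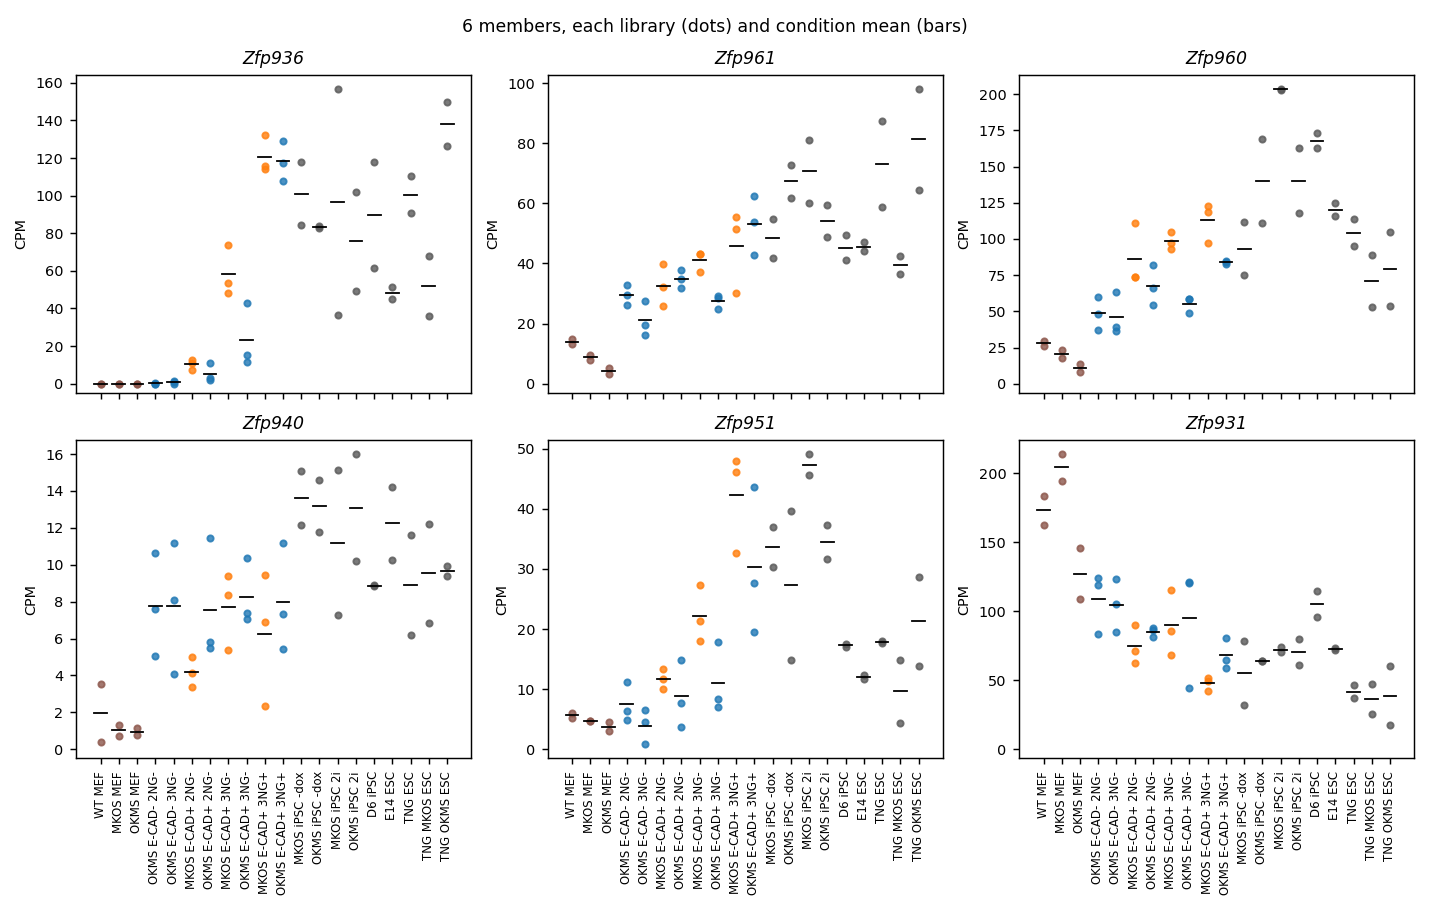
CPM of 6 members in each of the 48 libraries (dots; MEFs brown, MKOS sorted cells orange, OKMS sorted cells blue, pluripotent lines gray) with the mean of each condition (bars); each panel has its own linear axis. Zfp936 is at 0 in MEFs and at 108 to 132 CPM in 3NG+ cells, Zfp961, Zfp960, and Zfp940 are already above MEFs in E-CAD- cells, and Zfp931 is highest in MEFs.

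To find how the members differ between the end points, ESCs (4 conditions) were compared with MEFs (3 conditions) by edgeR's quasi-likelihood test, fitted to all 48 libraries and 15630 genes. Of the 31 members that passed the filter on low counts, 13 were higher and 5 lower in ESCs at a Benjamini-Hochberg adjusted p of at most 0.05. Among all genes, 60.1% were called in this comparison, 29.6% as higher and 30.4% as lower, so the members' share of 18 in 31 is near that of all genes. Their median log2 fold change was 0.45, against 0.49 for 290 other Zfp rows and 0.00 for all genes. Zfp957, with 65 reads in all, did not pass the filter.

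The largest differences were those of Zfp936, Zfp964, Zfp940, Zfp961, Zfp959, and Zfp960. The mean of Zfp936 was 84.7 CPM in ESCs, at least 1331-fold higher than the floor in MEFs (adjusted p = 9.43e-17). Zfp940 had 0.365 to 3.55 CPM in MEFs and 6.21 to 14.2 CPM in ESCs, with a log2 fold change of 3.05 (SE 0.41, adjusted p = 2.72e-08). Zfp961 changed by 2.87 on the log2 scale (SE 0.20, adjusted p = 8.34e-16) and Zfp960 by 2.38 (SE 0.21, adjusted p = 5.96e-13). Zfp936, Zfp940, Zfp961, and Zfp960 were higher in every one of the 8 ESC libraries than in any of the 6 MEF libraries. Such separation was no rarer among other genes, since the ESC and MEF libraries were apart for 6 of the 31 members (19.4%), 22.1% of the other Zfp rows, and 33.3% of all genes. Zfp959 and Zfp964 rested on few reads. PCR copies were kept, so the interval given below for Zfp964 covers counting error only and not the spread between libraries. Zfp959 had 0 to 1.86 CPM in MEFs and 0.394 to 4.80 CPM in ESCs (log2 fold change 2.80, SE 1.20, adjusted p = 0.0424), and this call was lost in 13 of 20 alternatives (adjusted p up to 0.138). For Zfp964, 27 reads in MEFs stood against 2 reads in ESCs, a ratio of 19.9 with an exact 95% counting interval of 5 to 173, and the call was lost with DESeq2 and without WT MEF replicate 1, MKOS MEF replicate 1, or OKMS MEF replicate 2 (adjusted p up to 1). The remaining members that were higher were Zfp937, Zfp944, Zfp951, Zfp930, Zfp941, Zfp958, Zfp934, and Zfp946, with log2 fold changes of 1.02 to 2.34. Besides Zfp964, the members that were lower were Zfp931 (-1.80, SE 0.23, adjusted p = 8.25e-09), Zfp948 (-1.18), Zfp943 (-0.96), and Zfp935 (-0.69). Zfp941 and Zfp931 were the other two members without overlap, though the call of Zfp941 was lost without MKOS MEF replicate 2 (adjusted p = 0.0637).

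**Figure D3:**
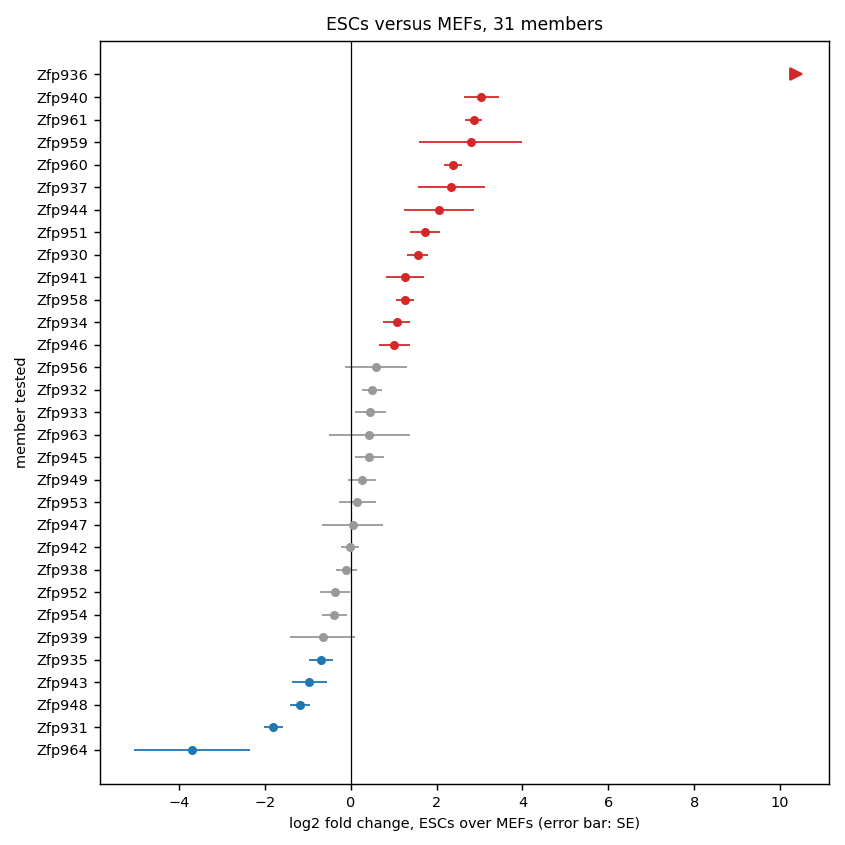
Log2 fold change of ESCs over MEFs with its standard error for the 31 members tested (red, higher; blue, lower; gray, not called at an adjusted p of at most 0.05). The triangle places Zfp936 at its lower bound of 1331-fold, since no MEF library had a read, and 13 members lie on the higher and 5 on the lower side.

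Rows of neighbors in the genome differed in direction. The unique share was 30.4% for Zfp943, 18.8% for Zfp942, 47.3% for Zfp947, and 49.2% for Zfp934, so these rows can hold reads of other copies. It was at least 90% for Zfp944, Zfp945, Zfp946, Zfp948, and Zfp935. On chromosome 17, 10 members are listed, and 7 of them lie between 21 and 23 Mb. In this stretch Zfp944 (2.06, SE 0.81) and Zfp946 (1.02, SE 0.37) were higher in ESCs, Zfp948 (-1.18, SE 0.23) and Zfp943 (-0.96, SE 0.41) were lower, and Zfp942, Zfp945, and Zfp947 were not called. The RefSeq promoter windows of Zfp942 and Zfp943 overlap, with the genes on opposite strands. On chromosome 13, Zfp934 rose by 1.08 (SE 0.31) while its neighbor in the list, Zfp935, fell by 0.69 (SE 0.28). The call of Zfp934 was lost without TNG MKOS ESC replicate 1 (adjusted p = 0.0798). These pairs were picked after their values had been seen. Calls of Zfp943, Zfp944, Zfp946, and Zfp935 were lost without 11, 5, 3, and 7 of the 14 single libraries, with adjusted p up to 0.128, 0.0828, 0.0753, and 0.286, and that of Zfp943 was also lost without the filter on low counts.

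Next, MEFs were compared with the CD44low ICAM1low cells of the same cassette to see how this gate differed from the starting cells. In MKOS 2NG- cells, 7 members were higher and 2 lower (27.0% of all genes were called, 15.0% as higher and 12.0% as lower), and in OKMS E-CAD+ 2NG- cells 9 were higher and none lower (29.2% of all genes, 15.7% and 13.5%). These comparisons share no library. Both called Zfp930, Zfp936, Zfp940, Zfp958, Zfp960, and Zfp961 as higher, which is 85.7% of the 7 MKOS calls and 66.7% of the 9 OKMS calls, against 66.2% and 63.3% for the 1551 genes called as higher in both among all genes. Zfp936 rose from 0 reads to 10.4 CPM with MKOS, at least 49.6-fold above the floor of MKOS MEFs (adjusted p = 8.60e-06), and to 5.33 CPM with OKMS, at least 25.1-fold above that of OKMS MEFs (adjusted p = 4.02e-05). Zfp961 was 9.52 and 7.98 CPM in MKOS MEFs and 32.0, 25.7, and 39.8 CPM in MKOS 2NG- cells, a log2 change of 1.83 (SE 0.33, adjusted p = 3.65e-05). With OKMS it was 3.16 and 5.15 CPM in MEFs and 31.7, 37.7, and 34.9 CPM in E-CAD+ 2NG- cells, a log2 change of 3.16 (SE 0.36, adjusted p = 8.31e-09). Zfp960 rose by 2.00 with MKOS (SE 0.35) and by 2.76 with OKMS (SE 0.37). Macrophage markers moved with the MKOS comparison, where 3 of 4 were higher and their sum was 14.6 and 16.7 CPM in MEFs and 150, 763, and 1496 CPM in 2NG- cells. With OKMS none of the 4 was called, with sums of 107 and 120 CPM in MEFs and of 125, 237, and 288 CPM in E-CAD+ 2NG- cells. All 7 fibroblast markers were lower and all 4 epithelial and all 8 pluripotency markers higher in the 2NG- cells of both cassettes. Of 4 trophoblast markers 1 was higher with each cassette, of 4 primitive endoderm markers 2 were lower with MKOS and 1 with OKMS, and the part of these cells in the changes was not tested.

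Zfp958 was higher by 2.28 with MKOS (SE 0.39) and by 1.91 with OKMS (SE 0.39). Zfp940 was 0.717 and 1.33 CPM in MKOS MEFs and 4.999, 4.13, and 3.39 CPM in MKOS 2NG- cells (log2 change 2.05, SE 0.70, adjusted p = 0.0271), a call that was lost in 7 of 14 alternatives. With OKMS the change of Zfp940 held in all 14 alternatives (3.13, SE 0.72, adjusted p = 0.000828). Zfp941 was called with MKOS only (2.15, SE 0.80, adjusted p = 0.0407, lost in 9 of 14 alternatives). Zfp937 was called with OKMS (3.92, SE 1.47, adjusted p = 0.0404), where the MEF libraries held 0 and 3 reads. Its ratio was 12 with an exact 95% counting interval of 3.91 to 59.8, which covers counting error only. The call of Zfp937 was lost in 9 of 14 alternatives. Zfp946 (2.04, SE 0.65) and Zfp934 (1.75, SE 0.56) were called with OKMS as well. Neither held without OKMS MEF replicate 2, nor did Zfp946 without OKMS MEF replicate 1 or Zfp934 without the sorted libraries numbered 1 (adjusted p up to 0.144 and 0.210 over the alternatives). Zfp930 rose by 1.34 with MKOS (SE 0.41), which was lost without MKOS MEF replicate 2 (adjusted p = 0.158), and by 2.24 with OKMS (SE 0.43). The members that fell with MKOS were Zfp931, from 195 and 214 CPM to 89.8, 71.4, and 62.5 CPM (-1.49, SE 0.38, adjusted p = 0.00269), and Zfp948, from 59.1 and 46.7 CPM to 22.6, 24.1, and 14.6 CPM (-1.42, SE 0.38, adjusted p = 0.00429; adjusted p = 0.0818 without MKOS MEF replicate 1). In OKMS, Zfp931 was 146 and 109 CPM in MEFs and 87.6, 86.1, and 81.3 CPM in E-CAD+ 2NG- cells and was not called.

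A direct test of the difference between the changes of both cassettes, added after the data had been seen, called no member (1.35% of all genes), and 4 members had an unadjusted p under 0.05. DESeq2 called none either. For Zfp936 this test gave no usable value, since both sets of MEFs were at 0. OKMS E-CAD- 2NG- cells were compared with the same OKMS MEFs, and 5 members were higher and none lower (21.8% of all genes, 11.7% as higher and 10.1% as lower). Zfp940 (2.96, SE 0.72, adjusted p = 0.00205), Zfp961 (2.78, SE 0.35, adjusted p = 1.75e-07), Zfp960 (2.17, SE 0.36, adjusted p = 1.89e-05), and Zfp930 (2.04, SE 0.43, adjusted p = 0.000428) held in all 14 alternatives. Zfp958 (1.04, SE 0.38, adjusted p = 0.0441) was lost in 10 of them. The levels of Zfp961 in these cells, 29.4, 33.0, and 26.1 CPM, were all above those of OKMS MEFs, and so were those of Zfp960, with 60.1, 48.4, and 37.2 CPM against 13.4 and 7.79 CPM. Zfp936 had 1 read in the 3 libraries together and was not called. In the same comparison 6 of 7 fibroblast and 1 of 4 primitive endoderm markers were lower, while 3 of 4 epithelial and 7 of 8 pluripotency markers were higher. None of the 4 macrophage markers was called, with sums of 107 and 120 CPM in OKMS MEFs and of 127, 696, and 879 CPM in E-CAD- 2NG- cells. The part of all these markers was not tested.

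**Figure D4:**
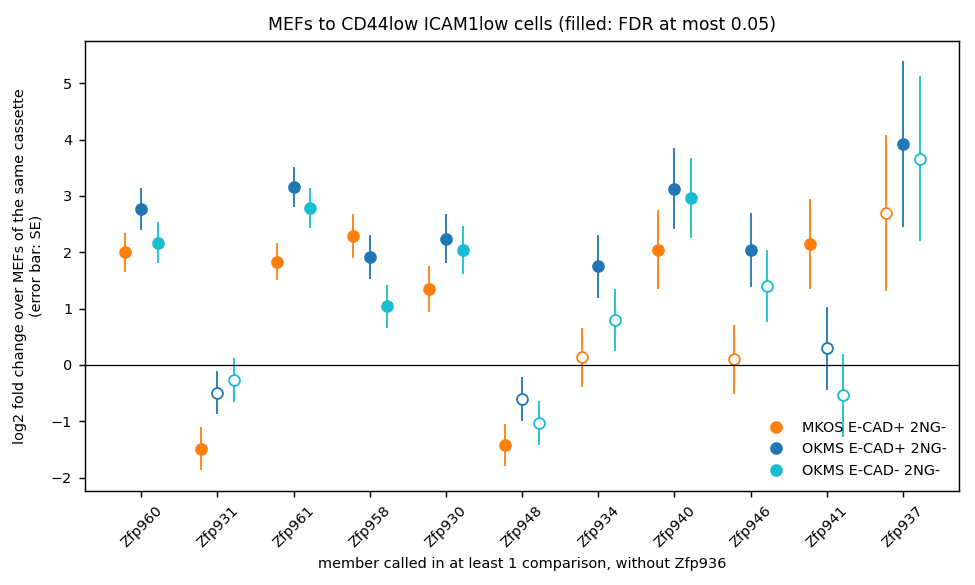
Log2 fold change with its standard error from MEFs to CD44low ICAM1low cells of the same cassette, for the 11 members other than Zfp936 called in at least 1 of the 3 comparisons (filled, adjusted p of at most 0.05; open, not called). Zfp960, Zfp961, Zfp958, Zfp930, and Zfp940 are filled and above 0 in all 3, and both OKMS comparisons use the same MEF libraries.

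OKMS and MKOS intermediates were then compared with each other. Between OKMS and MKOS E-CAD+ Nanog-GFP- cells (2NG- and 3NG- together, 6 libraries each), no member was called by edgeR, against 11.9% of all genes, and 6 members had an unadjusted p under 0.05. DESeq2 called Zfp946 (log2 fold change 1.03), and edgeR called Zfp936 with a replicate block (-1.09, adjusted p = 0.0211) and without the filter on low counts (-0.94, adjusted p = 0.000290). Without the filter, 958 of all genes were called as higher and 1228 as lower, against 813 and 1045 with it. With the compared libraries alone, Zfp932, Zfp946, Zfp956, and Zfp960 were called. The 6 were Zfp936 (-0.95, SE 0.36, adjusted p = 0.0759), Zfp960 (-0.49, SE 0.20), Zfp946 (1.02, SE 0.38), Zfp956 (1.82, SE 0.78), Zfp938 (0.61, SE 0.26), and Zfp932 (0.53, SE 0.25). OKMS replicate 3 stood apart in both gates, with Zfp936 at 10.9 and 42.8 CPM. The summed level of 8 pluripotency markers was also highest there, with 3300 CPM in 2NG- and 5589 CPM in 3NG- cells, against 858 to 2398 CPM in the other 4 OKMS E-CAD+ Nanog-GFP- libraries. Of these markers 5 were lower in OKMS than in MKOS cells, and of 4 primitive endoderm markers 1 was higher; their part in the result was not tested. The sum of 4 macrophage markers was lowest in the library numbered 3 in all 8 sorted conditions, and its part was not tested either. Without OKMS E-CAD+ 2NG- replicate 3 the change of Zfp936 was -1.60 (adjusted p = 0.00523), without OKMS E-CAD+ 3NG- replicate 3 it was -1.36 (adjusted p = 0.0109), and with all sorted libraries numbered 3 left out it was -1.85 (adjusted p = 0.000913).

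E-CADHERIN marks cells that have passed the mesenchymal-to-epithelial transition, and E-CAD- libraries came from OKMS alone. Against E-CAD- cells, OKMS E-CAD+ Nanog-GFP- cells had 3 members higher and none lower (7.08% of all genes were called, 4.69% as higher and 2.39% as lower). Zfp936 was 2.22 to 42.8 CPM in the E-CAD+ libraries (median 11.2, n = 6) and 0 to 1.65 CPM in the E-CAD- libraries (median 0.172, n = 6), without overlap (log2 fold change 5.42, SE 0.63, adjusted p = 1.11e-07). This held in all 21 alternatives, with log2 fold changes of 3.73 to 6.83. Zfp941 (1.62, SE 0.49, adjusted p = 0.0329) and Zfp954 (1.01, SE 0.32, adjusted p = 0.0432) were lost in 11 and 13 of the 21. Among 31 members, 26 had a positive log2 fold change, of which 3 were called, against 144 of 290 other Zfp rows and 7931 of 15630 genes. The median was 0.43 against 0.00 for the other Zfp rows and 0.01 for all genes. All 8 pluripotency markers were higher as well, with sums of 858 to 5589 CPM in the E-CAD+ and 191 to 332 CPM in the E-CAD- libraries, and so were all 4 epithelial markers and 2 of 4 trophoblast markers; their part in these values was not tested.

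The step from 3NG- to 3NG+ cells, which differ in the Nanog-GFP signal, was asked for each cassette. The gates are separate sorted populations and not the same cells followed in time. Words such as rose and fell stand for differences between gates, here and below. For OKMS, the paper leaves the origin of the 3NG+ cells unclear. With OKMS, 3 members rose and 1 fell (6.26% of all genes were called, 3.06% as higher and 3.21% as lower). Zfp936 rose from 11.5, 15.2, and 42.8 CPM to 129, 118, and 108 CPM (2.56, SE 0.51, adjusted p = 0.00147). Zfp951 rose from 6.96, 8.33, and 17.9 CPM to 43.6, 19.6, and 27.6 CPM (1.70, SE 0.50, adjusted p = 0.0340), and Zfp961 from 28.6, 24.8, and 29.2 CPM to 62.4, 53.9, and 42.9 CPM (1.15, SE 0.27, adjusted p = 0.00705). Zfp954 fell from 34.2, 25.0, and 12.2 CPM to 8.20, 0.699, and 7.44 CPM (-1.73, SE 0.46, adjusted p = 0.0180). Both groups were apart for all 4, which had been picked by their calls in these same libraries, so this adds no support. The share of all genes that were apart in this way was not computed. All 4 calls were lost when the sorted libraries numbered 1 or those numbered 2 were left out together, Zfp936 with an adjusted p of up to 0.0870. With single libraries left out, Zfp936 kept its call. Zfp961 lost it without OKMS 3NG+ replicate 1 or 3NG- replicate 2, Zfp951 without 4 single libraries, and Zfp954 without 3, and both of the latter with the compared libraries alone (adjusted p up to 0.179, 0.438, and 0.213). At this step 6 of 8 pluripotency markers were higher, with sums of 1659 to 5589 CPM in 3NG- and 14980 to 16363 CPM in 3NG+ cells, and 2 of 4 epithelial markers were lower, with sums of 596 to 672 CPM and 261 to 284 CPM. Of 4 trophoblast markers, 1 was lower too, and the part of these markers was not tested.

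With MKOS no member was called between 3NG- and 3NG+ cells, against 1.58% of all genes, and 3 members had an unadjusted p under 0.05; DESeq2 called none. Zfp936 was 53.7, 48.3, and 73.6 CPM in 3NG- cells and 116, 132, and 114 CPM in 3NG+ cells (1.22, SE 0.48, adjusted p = 0.188). None of the 8 pluripotency markers was called at this step, with sums of 8210 to 10321 CPM in 3NG- and 12619 to 13973 CPM in 3NG+ cells. Of 4 epithelial markers, 2 were lower in 3NG+ cells. Zfp936 was called in fits without the filter on low counts and on the compared libraries alone. Of all genes, these fits called 281 and 237 as higher and 606 and 308 as lower, against 87 and 160 in the main fit. The difference between the cassettes was tested as an interaction, and no member passed, as with DESeq2 (0.0256% of all genes passed, 2 members had an unadjusted p under 0.05). For Zfp936 it was 1.33 (SE 0.68, adjusted p = 0.689). A comparison of 2NG- with 3NG- cells was added after the data had been seen. Zfp936 was the only member called with MKOS (2.41, SE 0.51, adjusted p = 0.0150; 0.390% of all genes, 0.352% as higher and 0.0384% as lower), and it lost the call in 6 of 15 alternatives (adjusted p up to 0.222), namely without MKOS 3NG- replicate 3, any 1 of the 3 MKOS 2NG- libraries, or the sorted libraries numbered 1 or 2. Of the 8 pluripotency markers 1 was higher at this step, and no marker of the other cell type lists was called. With OKMS the change of Zfp936 was 1.88 (SE 0.52, adjusted p = 0.472), and 0.0384% of all genes were called. Zfp936 reached the threshold without OKMS 2NG- replicate 3 (3.19, adjusted p = 0.0114) and without the filter on low counts (1.89, adjusted p = 2.21e-06). Without the filter, 127 of all genes were called as higher and 22 as lower here, against 6 and 0 with it. DESeq2 called no member there, and 1 member had an unadjusted p under 0.05.

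Nanog-GFP+ cells of both cassettes and the pluripotent lines were compared next. Between OKMS and MKOS 3NG+ cells no member was called (0.685% of all genes), with 3 members at an unadjusted p under 0.05. The log2 difference of Zfp936 was 0.12 with an SE of 0.47. Between -dox iPSCs and 3NG+ cells none was called either (3.29%), again with 3 members at an unadjusted p under 0.05, and DESeq2 called none in both. In the second of these, 5 of 7 fibroblast, 1 of 4 macrophage, and 1 of 4 epithelial markers were lower and 1 of 8 pluripotency markers higher in iPSCs. Zfp932 was called there without OKMS iPSC -dox replicate 2 (log2 change 1.09, adjusted p = 0.0294). Between TNG MKOS and OKMS ESCs and -dox iPSCs with the same cassettes, Zfp958 was lower in ESCs (-1.07, SE 0.27, adjusted p = 0.0336; 1.40% of all genes were called, 0.269% as higher and 1.13% as lower). Its levels were 32.3, 10.5, 16.9, and 38.8 CPM in the ESCs and 57.0, 43.6, 48.2, and 46.8 CPM in the iPSCs, without overlap. The call was lost without TNG MKOS ESC replicate 2, TNG OKMS ESC replicate 1, either MKOS iPSC library, or OKMS iPSC replicate 1, and with the compared libraries alone (adjusted p up to 0.276). Of the 31 members, 7 had an unadjusted p under 0.05 and 6 a positive log2 fold change, against 149 of 290 other Zfp rows and 7492 of 15630 genes, with a median of -0.31 for the members, 0.03 for the other Zfp rows, and 0.00 for all genes. Replicates of these ESC lines stood apart in the summed level of the members. It was 567 CPM in replicate 1 and 377 CPM in replicate 2 of TNG MKOS ESCs. In TNG OKMS ESCs it was 519 CPM in replicate 1 and 767 CPM in replicate 2. The part of single libraries in the members' median was not tested. No marker of the 6 cell type lists was called in this comparison.

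The medium of iPSCs was compared as well, and 1 member was called. Zfp948 was 4.97 and 1.98 CPM in MKOS and 6.34 and 14.4 CPM in OKMS iPSCs in 2i medium, which blocks MEK and GSK3, against 19.3, 26.8, 14.8, and 15.0 CPM without 2i. The groups did not overlap, and the log2 change was -1.72 (SE 0.33, adjusted p = 0.000820; 4.34% of all genes were called, 1.89% as higher and 2.45% as lower). It held in all 14 alternatives, with adjusted p of at most 0.0341. Of the markers, 2 of 8 for pluripotency, 1 of 4 for epithelium, and 1 of 4 for primitive endoderm were lower in 2i medium as well, and their part was not tested. Zfp948 was also lower in ESCs and in MKOS 2NG- cells than in MEFs.

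The partners of KRAB zinc finger proteins were taken from a list of 21 cofactor genes. In ESCs 16 of them were higher and 2 lower than in MEFs, against 29.6% and 30.4% of all genes. Trim28 was 91.3 to 155 CPM in MEFs (median 118) and 544 to 1518 CPM in ESCs (median 687), a log2 fold change of 2.64 (SE 0.16, adjusted p = 6.91e-18). Setdb1 was 12.02 to 28.2 CPM in MEFs and 36.2 to 72.8 CPM in ESCs (1.32, SE 0.17, adjusted p = 2.13e-08). Also higher were the heterochromatin protein genes Cbx1 (2.50) and Cbx5 (0.59), the DNA methylation genes Uhrf1 (1.99) and Dnmt1 (1.36), the remodeler Smarcad1 (1.97), the histone chaperone Daxx (1.95), Mphosph8 (1.47) and D14Abb1e (1.96) of the HUSH complex, and 2810474O19Rik (1.86), Morc3 (1.66), Morc2a (0.93), Hdac1 (0.77), Chd4 (0.46), and Hdac2 (0.36). Chd3, an ATPase of the NuRD complex, fell from 42.7 to 87.6 CPM in MEFs to 0.265 to 3.69 CPM in ESCs (-6.20, SE 0.57), and Pphln1 of the HUSH complex was lower by 0.61 on the log2 scale. From 3NG- to 3NG+, Trim28 rose with both cassettes, by 0.85 with MKOS (SE 0.22, adjusted p = 0.0300) and by 1.06 with OKMS (SE 0.22, adjusted p = 0.00204). Between OKMS and MKOS E-CAD+ Nanog-GFP- cells, where 11.9% of all genes were called, Cbx1 was higher (0.64, SE 0.20) and Smarcad1 lower (-0.67, SE 0.20). The difference of Trim28 was -0.02 (SE 0.15).

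Of 9 other zinc finger genes with known roles in ESCs or embryos, 8 were higher and none lower in ESCs, against 29.6% and 30.4% of all genes. Zfp42, also called Rex1 and used as a pluripotency marker, had 0 to 1.95 CPM in MEFs and 611 to 1053 CPM in ESCs (log2 fold change 10.64, SE 0.48). Zfp57, which protects imprints, was higher by 2.76 (SE 0.21), and Zfp809, which recruits Trim28 to proviruses, was not called (0.46, SE 0.24, adjusted p = 0.0877). In OKMS against MKOS E-CAD+ Nanog-GFP- cells all 3 were lower, Zfp42 by -2.42 (SE 0.30, adjusted p = 2.85e-07), Zfp57 by -1.51 (SE 0.20, adjusted p = 1.24e-06), and Zfp809 by -0.94 (SE 0.25, adjusted p = 0.00997). Of all genes, 11.9% were called in this comparison.

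Markers of other cell types moved along with several of these comparisons, and fewer cells of a type and less RNA per cell cannot be told apart in bulk RNA. The 8 pluripotency markers summed to 2.11 to 11.8 CPM in MEFs, with Nanog and Utf1 at 0 in all 3 MEF conditions, and to at least 11463 CPM in every ESC library, mostly from Dppa5a. The 7 fibroblast markers summed to 2977 to 5223 CPM in MEFs and to 5.57 to 27.2 CPM in ESCs and iPSCs. They were at 350 to 933 CPM in MKOS and 68.7 to 275 CPM in OKMS E-CAD+ Nanog-GFP- cells, with 4 of 7 lower in OKMS, and at 523 to 844 CPM in OKMS E-CAD- cells, with 6 of 7 lower in E-CAD+ cells. In 3NG+ cells they were still at 91.7 to 582 CPM, led by Col1a2 or Col3a1. Of 4 macrophage markers, Lyz2 was the most abundant in MEFs and sorted cells and Cd68 in all ESC and iPSC conditions, and their sum was 148 to 1787 CPM in MKOS and 21.0 to 358 CPM in OKMS E-CAD+ Nanog-GFP- cells, with 2 of 4 lower in OKMS. Lyz2 was listed at 0 in E14, TNG MKOS, and TNG OKMS ESCs. The 4 epithelial markers summed to 596 CPM or more in E-CAD+ Nanog-GFP- cells and to 56.5 to 181 CPM in E-CAD- cells, with Krt8 the most abundant. The part of these cells in the values of Zfp900 to Zfp999 was not tested.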

How the data were processed

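The authors made the values from STRT reads, which hold only 5′ ends, and deposited 1 table with raw read counts per transcript and library, not normalized. Per the methods and the processing notes of the submitters, reads were mapped with Bowtie 0.12.7, reads with several positions were given to the most 5′ exonic hit, and PCR copies were not removed. The notes name mm10 and the methods mm9. The file positions of all 14 members on the plus strand that have a RefSeq promoter lay in its GRCm38.p6 window. From the deposited counts, CPM was computed over the 24264 transcript rows, leaving out 1554 repeat and 104 spike-in rows. The deposited count of unique reads, pooled over libraries, gave the unique share.

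Groups were taken from the labels. Members and gene lists were chosen with earlier results of these data known. Comparisons used edgeR 4.0.16 in R 4.3.3, with TMM scaling, genes filtered by condition, 20 condition coefficients over 48 libraries, and quasi-likelihood tests with Benjamini-Hochberg adjustment over 15630 genes. The rule for named genes took the 6 members with the highest mean CPM, per comparison up to 6 called members with the largest log2 fold change, Trim28, Setdb1, other cofactors called between ESCs and MEFs or OKMS and MKOS, and Zfp42, Zfp57, and Zfp809; other called members are named with fewer values. Alternatives were DESeq2 1.42.0, its size factors, no filter, a replicate block, the compared libraries alone, sorted libraries of 1 number left out, and each library left out, where fits without a library kept the dispersion trend of all libraries. The comparisons of 2NG- with 3NG- cells and of the changes from MEFs between cassettes were added after the data had been seen.

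The edgeR step was tested on simulated data for OKMS against MKOS E-CAD+ Nanog-GFP- cells (12930 genes, 200 changed 4-fold): of 185 genes called, 179 were changed ones. Among 36 pairs of replicates the lowest chi-square per gene was 13.3, so no library was counted as a copy of another.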

Additional observations from a re-analysis of the deposited data

How the results depend on the processing

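Of 51 calls of a member in a comparison, 27 held in every alternative run, 24 were lost in at least 1, and none turned its direction. The numbers of sorted libraries were not taken as pairs, because the labels tie no number to a shared culture or day and not every correlation was over 0.1: over 84 pairs of same-numbered sorted libraries the correlation of deviations from the condition means averaged 0.0754 (-0.0443 to 0.320, 21 over 0.1), and over 168 pairs of different numbers it averaged -0.0376 (2 over 0.1). Of the 24 sorted libraries, 21 correlated best with their own number on average, a hint from the data and not from the design. With the replicate block, 1 member (Zfp936, -1.09, adjusted p = 0.0211) was called between OKMS and MKOS E-CAD+ Nanog-GFP- cells in place of 0. In this comparison 1 was called without the filter on low counts (Zfp936), 1 by DESeq2 (Zfp946), 4 with the compared libraries alone (Zfp932, Zfp946, Zfp956, and Zfp960), and 2 without the sorted libraries numbered 3 (Zfp936 and Zfp951). Without the filter, 1 member was called from MKOS 3NG- to 3NG+, 1 between -dox iPSCs and 3NG+ cells, 2 between ESCs and iPSCs, and 1 from OKMS 2NG- to 3NG-. In each of these comparisons more of all genes were called without the filter as well. Between -dox iPSCs and 3NG+ cells, for instance, 375 were higher and 612 lower, against 195 and 320 with it. DESeq2 called 8 members from OKMS MEFs to E-CAD- 2NG- cells and 2 between ESCs and iPSCs. With the compared libraries alone, 2 were called from MKOS 3NG- to 3NG+, 2 from OKMS 3NG- to 3NG+, and 0 between ESCs and iPSCs. Leaving out the sorted libraries numbered 1 gave 0 members from OKMS 3NG- to 3NG+ and 0 from MKOS 2NG- to 3NG-, and leaving out those numbered 2 gave the same counts of 0 and 0. Between OKMS E-CAD+ and E-CAD- cells, 1 member was left without those numbered 2 and 1 without those numbered 3. The causes were not tested.

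With single libraries left out, 13 to 18 members were called between ESCs and MEFs, 7 to 8 from MKOS MEFs to 2NG-, 6 to 10 from OKMS MEFs to E-CAD+ 2NG-, and 4 to 8 to E-CAD- 2NG-. The range was 0 to 1 between OKMS and MKOS E-CAD+ Nanog-GFP- cells, 1 to 3 between E-CAD+ and E-CAD- cells, and 1 to 4 from OKMS 3NG- to 3NG+. It was 0 to 1 between -dox iPSCs and 3NG+ cells, 0 to 4 between ESCs and iPSCs, and 0 to 1 for each step from 2NG- to 3NG-. The median summed level of the members was 572 CPM per library, and 563 CPM with TMM-scaled library sizes. CPM of unique reads per library was not run, because unique reads are pooled over libraries. At 3 reads per library as the floor, members under 2.10 CPM could not be told from 0 in the shallowest library.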

Other observations

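The 5 members on chromosome 8 and the 5 on chromosome 7 held 35531 and 29233 reads, against 55606 for the 10 on chromosome 17. The 4 primitive endoderm markers summed to 62.7 to 84.0 CPM in MEFs, mostly from Dab2, and to at most 52.0 CPM in sorted cells, with Sox17 at 0 in the 3 MEF conditions. The 4 trophoblast markers summed to at most 38.7 CPM in any library, in OKMS E-CAD+ 2NG- cells. Among iPSC libraries, MKOS -dox iPSCs reached 46.7 CPM of primitive endoderm markers in 1 library and 6.01 CPM in the other.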
